A study of Mus musculus with 8 samples.

Results

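A set of 10 genes of activin, ALK7 and follistatin signalling was followed in epididymal white adipose tissue (eWAT), the visceral fat pad beside the epididymis, of Abhd15 knockout (KO) mice (n = 5) and wild-type (WT) mice (n = 3). The genes were chosen by name, with earlier results of these data known. Each was read from the probe set annotated to it alone, of which every gene had 1. They are 10 of the 22180 genes measured, and 7 of the 10 were bright enough to be tested. All mice were males on a C57BL/6J background and ate normal chow. They were 14 weeks old by the design text (the sample descriptions speak of up to 14 weeks on chow), fasted overnight and refed for 1 h before the fat was taken, so both groups represent the early refed state. Each mouse gave 1 Affymetrix Mouse Gene 2.0 ST array from 200 ng of total RNA. The knockout allele is not described further in the sources used here, and ABHD15 is an adipocyte protein linked to the insulin-regulated phosphodiesterase PDE3B.

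Activins and related ligands are secreted dimers that bind a type II receptor (ACVR2A or ACVR2B), which then activates a type I receptor. ALK4, the product of Acvr1b, serves most activin A signals, whereas ALK7, the product of Acvr1c, is abundant in fat cells and serves activin B and GDF3. Both type I receptors phosphorylate SMAD2 and SMAD3, which enter the nucleus with SMAD4. In mouse fat cells ALK7 signalling is known to restrain lipolysis and favour fat storage. Follistatin (Fst) and follistatin-like 3 (Fstl3) capture activins outside the cell.

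The 41345 probe sets had medians of 2.93 to 3.12 on the 8 arrays (log2 signal), and the correlation between 2 arrays, taken across probe sets, was 0.962 to 0.978. The mature adipocyte markers were high on every array, with a list mean of 10.66 to 11.09 in KO and 10.84 to 11.02 in WT over 11 genes. Abhd15 itself, on the brighter of its 2 probe sets, averaged 5.89 ± 0.271 in KO (log2, SD, n = 5) and 6.32 ± 0.157 in WT (SD, n = 3). On that probe set the array labelled KO 3 (6.27) lay inside the WT range of 6.15 to 6.45. The log2 fold change of Abhd15 was -0.43, and -0.56 with the mean of its 2 probe sets. The position of its probes relative to the deletion is not known here, and this signal is therefore no check of the genotype. Transcripts of the epididymis and seminal vesicle stood out on KO 4 (list mean 3.79) and WT 1 (3.36), against 1.81 to 2.07 on the other arrays, and testis transcripts on WT 1 (6.00), WT 2 (4.99) and KO 4 (4.71), against 3.45 to 3.96 elsewhere.

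No member passed the threshold of 0.05 after adjustment over all 11090 tested genes. Among the genes with enough signal to be tested, 5 had a lower mean in KO. They were the type I receptors Acvr1b and Acvr1c, the type II receptor Acvr2a, and the inhibitors Fst and Fstl3. The activin B subunit Inhbb had a higher mean, and Acvr2b was close to equal. Of the 10 members, 7 were tested, and the other 3, Tdgf1, Inhba and Gdf3, lay below the level filter of 3.61 on every array. Among the 7, 3 had an unadjusted p under 0.05 in limma, 1 higher and 2 lower, which is 42.9% of them against 10.5% of all tested genes. By direction the background was 4.04% higher and 6.46% lower. Because the members were chosen with earlier results of these data known, the larger share is no independent support for a difference. Only Inhbb among the 7 had no overlap between the groups, which 8.53% of all tested genes had (2.99% with KO above WT). No tested gene of the array passed the adjusted threshold in limma (0%), and 1164 had an unadjusted p under 0.05. The count of 3 was 1 without KO 1, without KO 2 or without WT 2, and 0 without WT 1. It was also 0 without WT 1 and KO 4 together, and without KO 1 and KO 2 together. The median log2 fold change of the 7 was -0.31, beside -0.03 over all tested genes. In bulk tissue, fewer cells of a type and less RNA per cell cannot be told apart.

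**Figure D1:**
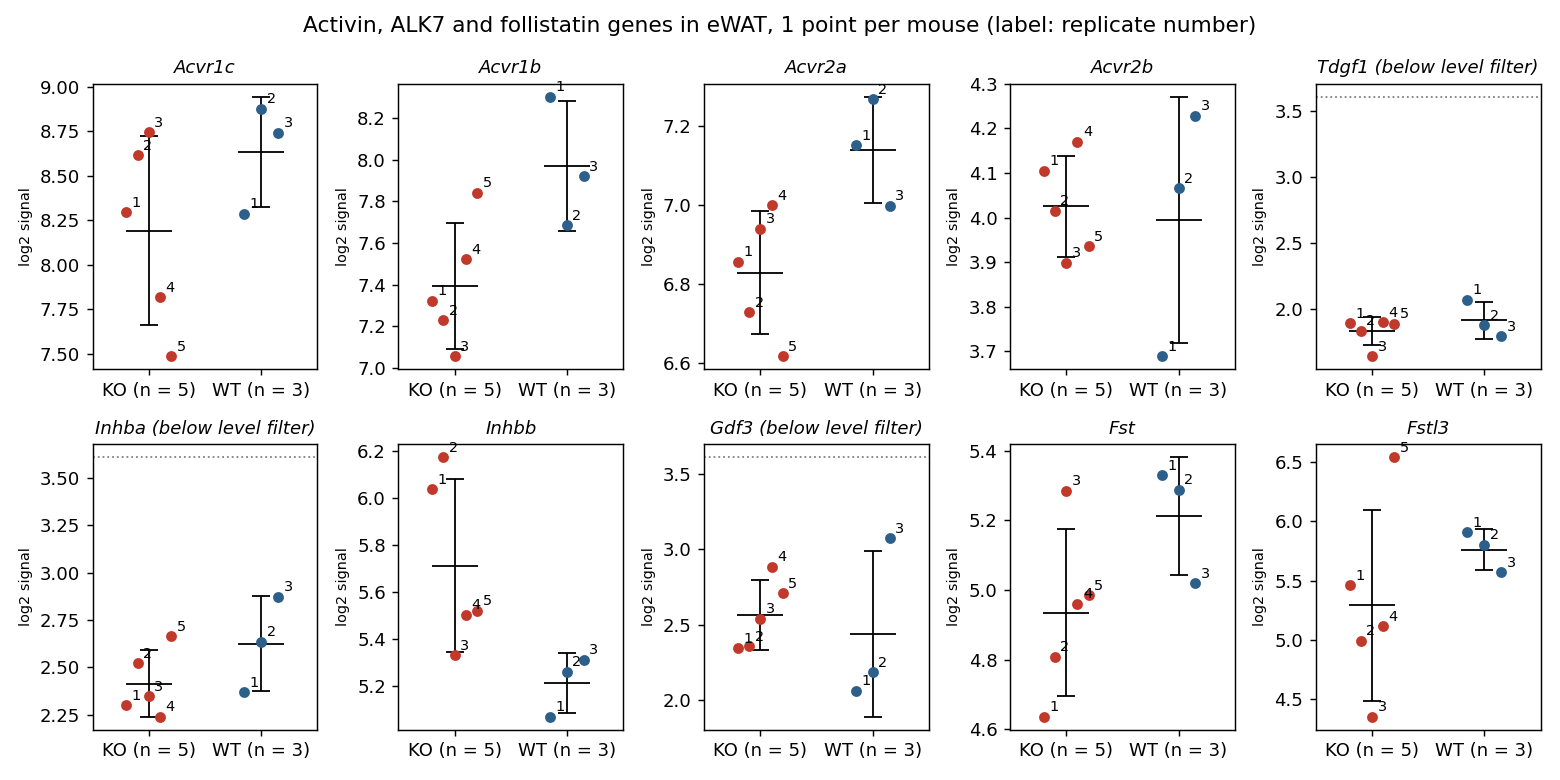
Log2 signal of the 10 genes by mouse, with KO at the left and WT at the right of each panel. Points are single arrays labelled by replicate number, black bars are the mean and SD (n = 5 KO, n = 3 WT), and the dotted line is the level filter at 3.61. The 5 KO points of Inhbb sit above all 3 WT points, and every other gene overlaps.

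Acvr1c, which encodes ALK7, read 8.30, 8.62, 8.74, 7.82 and 7.49 in KO 1 to KO 5, against 8.29, 8.88 and 8.74 in WT 1 to WT 3 (log2 signal). The groups overlapped: KO 4 and KO 5 lay below every WT array, and the other 3 KO arrays lay inside the WT range. The mean was 8.19 ± 0.532 in KO (SD, n = 5) and 8.64 ± 0.310 in WT (SD, n = 3), a log2 fold change of -0.44 (95% interval -1.08 to 0.19, adjusted p = 0.611 in limma), which did not pass. The exact two-sided permutation p was 0.286. Without KO 5 the log2 fold change was -0.27. With the replicate number as a block, a fit that compares KO 1 to KO 3 alone with WT, it was -0.08. Set against the mature adipocyte list mean of the same array, Acvr1c differed by -0.37 between KO and WT (exact permutation p = 0.25), so the receptor and the fat cell markers were not shown to differ by unequal amounts.

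Over the 8 arrays, the tested genes whose profiles lay nearest to that of Acvr1c were Zfp667, B3galt2 and Slc7a7. The measure was the root mean square difference between profiles centred on their own means, which was 0.137 for Zfp667, 0.137 for B3galt2 and 0.174 for Slc7a7, against a median of 0.488 over tested genes. B3galt2, a galactosyltransferase gene, read 9.49, 10.01, 10.01, 9.31 and 8.73 in KO 1 to KO 5, against 9.81, 10.16 and 10.32 in WT 1 to WT 3. Like Acvr1c it was lowest on KO 5 and next lowest on KO 4. The gene was picked for its likeness to Acvr1c on these same arrays, so the shared order is no separate result.

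Acvr1b, which encodes the type I receptor ALK4, read 7.32, 7.23, 7.06, 7.52 and 7.84 in KO 1 to KO 5, against 8.31, 7.69 and 7.92 in WT 1 to WT 3. KO 1 to KO 4 lay below the lowest WT array, and KO 5 lay inside the WT range. Its mean was 7.39 ± 0.302 in KO (SD, n = 5) and 7.97 ± 0.312 in WT (SD, n = 3). The log2 fold change was -0.58 (SE 0.201, 95% interval -1.03 to -0.13), with an unadjusted p of 0.0168 and an adjusted p of 0.360 in limma and an exact permutation p of 0.0714. Leaving out 1 array at a time gave -0.72 to -0.41, the smallest size without WT 1 (adjusted p = 0.764 in limma). WT 1, the highest array for Acvr1b, also carried reproductive tract transcripts, whose part was not tested. Relative to the mature adipocyte list the difference was -0.51 (exact permutation p = 0.179).

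Acvr2a, the type II receptor that pairs with ALK4 and ALK7, read 6.86 in KO 1, 6.73 in KO 2, 6.94 in KO 3 and 6.62 in KO 5, against 7.15, 7.27 and 6.999 in WT 1 to WT 3. The remaining array, KO 4, was 0.001 above WT 3, and this was the only point at which the groups met. The mean was 6.83 ± 0.155 in KO (SD, n = 5) and 7.14 ± 0.135 in WT (SD, n = 3), and the log2 fold change was -0.31 (SE 0.133, 95% interval -0.61 to -0.01, adjusted p = 0.454 in limma). The exact permutation p was 0.0714, and 0.0357, the smallest this two-sided test can give over the 56 divisions, after quantile normalization. Relative to the mature adipocyte list the difference was -0.24 (exact permutation p = 0.25). On that measure KO 4 (-3.66) lay above every WT array (-3.94 to -3.69), and KO 3 (-3.84) lay inside the WT range. Its paralogue Acvr2b read 4.11, 4.02, 3.90, 4.17 and 3.94 in KO 1 to KO 5, against 3.69, 4.07 and 4.23 in WT 1 to WT 3. All KO values of Acvr2b lay within the WT range, and its log2 fold change was 0.03 (95% interval -0.30 to 0.36, adjusted p = 0.960 in limma), with a sign that turned under 4 of 18 alternatives. Tdgf1, which encodes the coreceptor Cripto, was dim throughout, at 1.65 to 1.90 in KO and 1.80 to 2.07 in WT. Its log2 fold change in the fit without a level filter was -0.08 (95% interval -0.36 to 0.19), and -0.0043 without WT 1.

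The start-site windows of the 2 receptor genes that had an unadjusted p under 0.05 are shown so that they can be set beside each other. Each holds 250 bases before and 50 after the RefSeq start (GRCm38.p6, 5′ to 3′ on the gene's strand), with motif matches in capitals.
Acvr1b, chr15:101173822-101174121, plus strand: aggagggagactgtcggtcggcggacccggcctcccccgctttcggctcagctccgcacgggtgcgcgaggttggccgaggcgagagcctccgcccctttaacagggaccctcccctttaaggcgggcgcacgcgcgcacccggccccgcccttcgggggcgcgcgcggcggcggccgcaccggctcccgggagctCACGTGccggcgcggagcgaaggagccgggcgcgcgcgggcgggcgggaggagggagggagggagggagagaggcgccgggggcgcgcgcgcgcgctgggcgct
Acvr2a, chr2:48813859-48814158, plus strand: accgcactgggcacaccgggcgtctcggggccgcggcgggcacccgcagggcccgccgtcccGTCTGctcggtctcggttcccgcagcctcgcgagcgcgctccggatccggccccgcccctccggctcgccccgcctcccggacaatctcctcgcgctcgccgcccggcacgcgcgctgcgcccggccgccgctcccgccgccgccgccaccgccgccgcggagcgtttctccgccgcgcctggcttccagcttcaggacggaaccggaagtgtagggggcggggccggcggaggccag
The motifs searched, on both strands, were the SMAD box CAGAC, the cyclic AMP response element TGACGTCA, the AP-1 site TGANTCA and the E-box CACGTG, and no matches overlapped here. Acvr1b held 1 match, the E-box, whose first base lies at -54 from the start, and 7.15% of the 32851 windows in the table hold that motif. Acvr2a held 1 match, the SMAD box on the opposite strand with its first printed base at -188, a motif found in 49.6% of windows. The windows of these genes therefore shared no searched motif, and both were rich in G and C (79.7% and 80.3%, with a median of all windows of 52.7%). These matches describe letters and not binding.

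Inhbb, which encodes the beta B subunit of activin B, was the member whose groups stood apart. It read 6.04, 6.17, 5.33, 5.50 and 5.52 in KO 1 to KO 5, against 5.07, 5.26 and 5.31 in WT 1 to WT 3. KO 3, the lowest KO array, lay barely above WT 3, the highest WT array, and KO 1 and KO 2 were far above the rest. The mean was 5.71 ± 0.369 in KO (SD, n = 5) and 5.21 ± 0.128 in WT (SD, n = 3). The log2 fold change was 0.50 (SE 0.204, 95% interval 0.05 to 0.95), or 1.41 times the WT signal. The adjusted p was 0.433 in limma. The exact permutation p was 0.0357, the smallest possible here, and 0.0714 after median centring of the arrays. Relative to the mature adipocyte list Inhbb was 0.57 higher in KO with no overlap (exact permutation p = 0.0357), at -5.15 ± 0.215 in KO and -5.72 ± 0.084 in WT (log2 difference, SD, n = 5 and n = 3).

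KO 1 and KO 2 were also the arrays with the highest immediate early genes, transcripts induced within minutes of stimulation or handling. The mean of the 16 immediate early genes was 6.89 in KO 1, 6.89 in KO 2, 6.17 in KO 3, 5.54 in KO 4 and 5.81 in KO 5, against 5.82, 5.61 and 5.41 in WT 1 to WT 3. Without KO 1 and KO 2 the log2 fold change of Inhbb was 0.24 (adjusted p = 0.648 in limma). On KO 4 and KO 5, where the immediate early mean lay inside the WT range, Inhbb was above all WT arrays. The part of the immediate early state in the Inhbb result was not tested further.

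**Figure D2:**
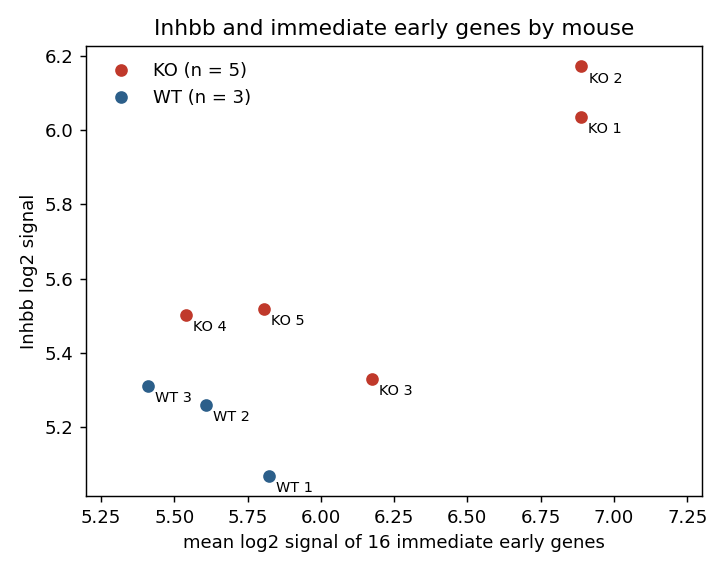
Inhbb log2 signal (vertical) against the mean log2 signal of 16 immediate early genes (horizontal), 1 point per mouse, KO in red (n = 5) and WT in blue (n = 3). KO 1 and KO 2 lie apart at the upper right, and KO 4 and KO 5 lie above the WT points at similar immediate early levels.

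The start-site window of Inhbb is shown for comparison with those of the receptors, since its signal ran the other way (same source, build and format).
Inhbb, chr1:119422199-119422498, minus strand: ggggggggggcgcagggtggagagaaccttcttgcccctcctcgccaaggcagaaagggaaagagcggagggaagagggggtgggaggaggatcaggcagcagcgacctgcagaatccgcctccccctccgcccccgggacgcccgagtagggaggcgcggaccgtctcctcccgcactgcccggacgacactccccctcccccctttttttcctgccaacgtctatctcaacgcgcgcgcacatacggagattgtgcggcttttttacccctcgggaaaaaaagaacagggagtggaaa
None of the 4 motifs has a match in this window, so it has no capitals. It begins with a run of G and has a G and C content of 64.3%. The cyclic AMP response element occurs in 1.79% of all windows and the AP-1 site in 7.81%.

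The other ligand genes gave little signal. Inhba, which encodes the beta A subunit of activin A, read 2.24 to 2.66 in KO with a median of 2.35, and 2.37, 2.64 and 2.87 in WT 1 to WT 3. Gdf3, an ALK7 ligand that adipose macrophages are known to make in mice, read 2.35, 2.36, 2.54, 2.88 and 2.71 in KO 1 to KO 5, against 2.07, 2.19 and 3.07 in WT 1 to WT 3. Both sets of groups overlapped. The log2 fold changes in the fit without a level filter were -0.21 for Inhba (95% interval -0.56 to 0.13) and 0.13 for Gdf3 (95% interval -0.39 to 0.65). With 1 array left out, Inhba ran from -0.34 (without WT 1) to -0.09 (without WT 3), and Gdf3 from -0.062 to 0.44. At such levels RMA compresses differences, so these intervals say little about the transcripts. The macrophage list mean was 6.85 to 7.28 in KO and 7.10 to 7.27 in WT (12 genes), and Gdf3 relative to it differed by 0.22 (exact permutation p = 0.429).

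Fst, the secreted activin antagonist follistatin, read 4.64, 4.81, 5.29, 4.96 and 4.99 in KO 1 to KO 5, against 5.33, 5.29 and 5.02 in WT 1 to WT 3. KO 3 lay inside the WT range, and the other 4 KO arrays lay below it. The log2 fold change was -0.28 (95% interval -0.64 to 0.08, adjusted p = 0.573 in limma, exact permutation p = 0.0714), and -0.14 without KO 1 and KO 2. Relative to the fibroblast and preadipocyte list it was -0.26 (exact permutation p = 0.286).

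Fstl3, a relative of follistatin that also binds activins and myostatin, had the largest SD within KO of the 10 members. It read 5.46, 5.00, 4.35, 5.12 and 6.54 in KO 1 to KO 5, against 5.91, 5.80 and 5.57 in WT 1 to WT 3. KO 1 to KO 4 lay below all WT arrays and KO 5 above all of them. The SD was 0.803 in KO (n = 5) and 0.171 in WT (n = 3). The log2 fold change was -0.47 (95% interval -1.33 to 0.40, adjusted p = 0.705 in limma, exact permutation p = 0.393). It was -0.78 without KO 5 and -0.23 without KO 3, so its size depended on these arrays. With the replicate block, which leaves KO 4 and KO 5 out of the contrast, it was -0.82 (adjusted p = 0.143 in limma).

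**Figure D3:**
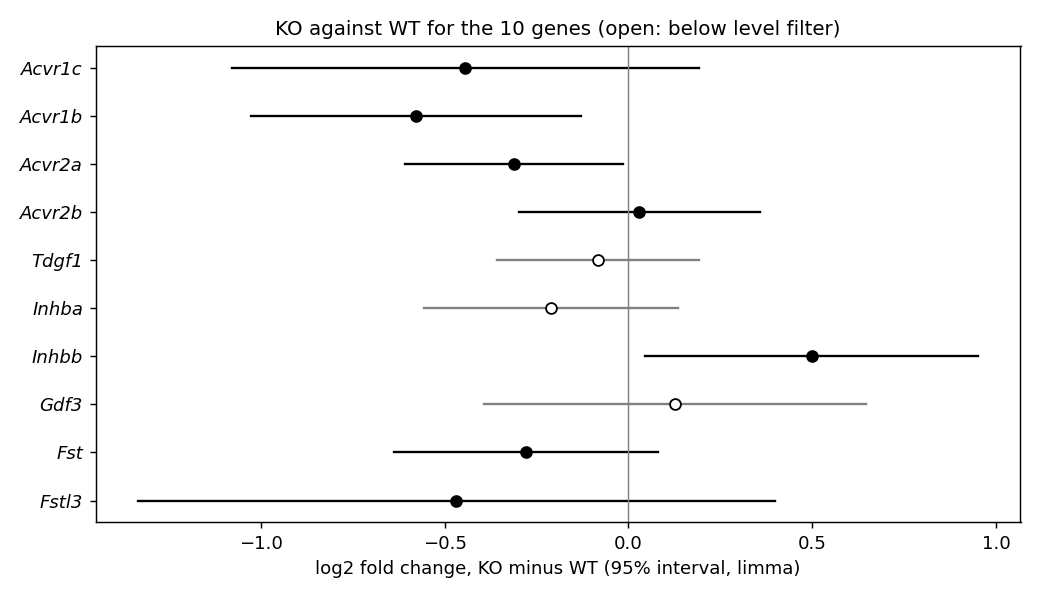
Log2 fold change (KO minus WT) of the 10 genes with 95% intervals from limma (n = 5 KO, n = 3 WT), filled for the 7 tested genes and open for the 3 below the level filter. The intervals of Acvr1b and Acvr2a lie below 0 and that of Inhbb above 0 before adjustment, and the other 7 span 0.

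The lists downstream and beside the receptors, 53 genes of which 33 were tested, held no gene past the adjusted threshold. Of the 33, 10 were higher and 23 lower in KO, with a median log2 fold change of -0.12, beside -0.03 and 55.2% lower over all tested genes. An unadjusted p under 0.05 in limma was found for 7 (1 higher, 6 lower), which is 21.2% of them, beside 10.5% of all tested genes. The lists were also chosen with earlier results known, so this share is no independent support either. The 6 include Nog, which passed the level filter only because of its WT signal. The endothelial list mean was 7.13 to 7.35 in KO and 7.28 to 7.64 in WT over 10 genes, and Eng and Tgfbr1 are also active in endothelium. Its part in these results was not tested.

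Among the SMAD transducers and their inhibitors, 3 of 12 tested genes were higher and 9 lower (median -0.18), and 1 had an unadjusted p under 0.05. That gene was Ski, a corepressor of SMAD complexes, at 7.36 ± 0.135 in KO (SD, n = 5) and 7.67 ± 0.192 in WT (SD, n = 3). Its log2 fold change was -0.31, and -0.20 without WT 1. The ubiquitin ligase gene Smurf2 (log2 fold change -0.25) had KO below WT with no overlap, as did 5.54% of all tested genes. The SMAD corepressor gene Skil had -0.72 and the inhibitory SMAD gene Smad7 -0.54, both with wide intervals. Skil was at -0.43 without WT 1 and at -0.40 without KO 1 and KO 2, and at -1.16 with the replicate block. Smad7 read 5.13, 4.95, 4.82, 5.21 and 6.92 in KO 1 to KO 5, against 6.20, 5.73 and 5.91 in WT 1 to WT 3, so that 4 KO arrays lay below WT and KO 5 above. Without KO 5 its log2 fold change was -0.92 (adjusted p = 0.084 in limma), and without KO 1 and KO 2 it was -0.30.

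Of 11 tested transcripts that SMAD2 and SMAD3 are known to induce, 5 were higher and 6 lower (median -0.11). Pmepa1, which encodes a membrane protein that dampens TGF-beta signals, read 9.49, 9.23, 8.50, 9.36 and 9.77 in KO 1 to KO 5, against 10.2, 9.99 and 9.90 in WT 1 to WT 3. All KO arrays lay below all WT arrays (log2 fold change -0.76, SE 0.248, adjusted p = 0.346 in limma, exact permutation p = 0.0357). Of all tested genes, 5.54% had KO below WT without overlap. Pmepa1 was named for its small unadjusted p on these same arrays, so its separation is no separate result. Ccn2, a matricellular protein gene, had a log2 fold change of 0.55 and read highest on KO 1 (6.67) and KO 2 (6.93), the arrays with the highest immediate early genes. It was 0.18 without those 2 arrays, and 0.35 with the mean of its 2 probe sets. Ldlrad4, a negative regulator of TGF-beta signalling, was at -0.47, and at -0.74 without KO 1 and KO 2.

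**Figure D4:**
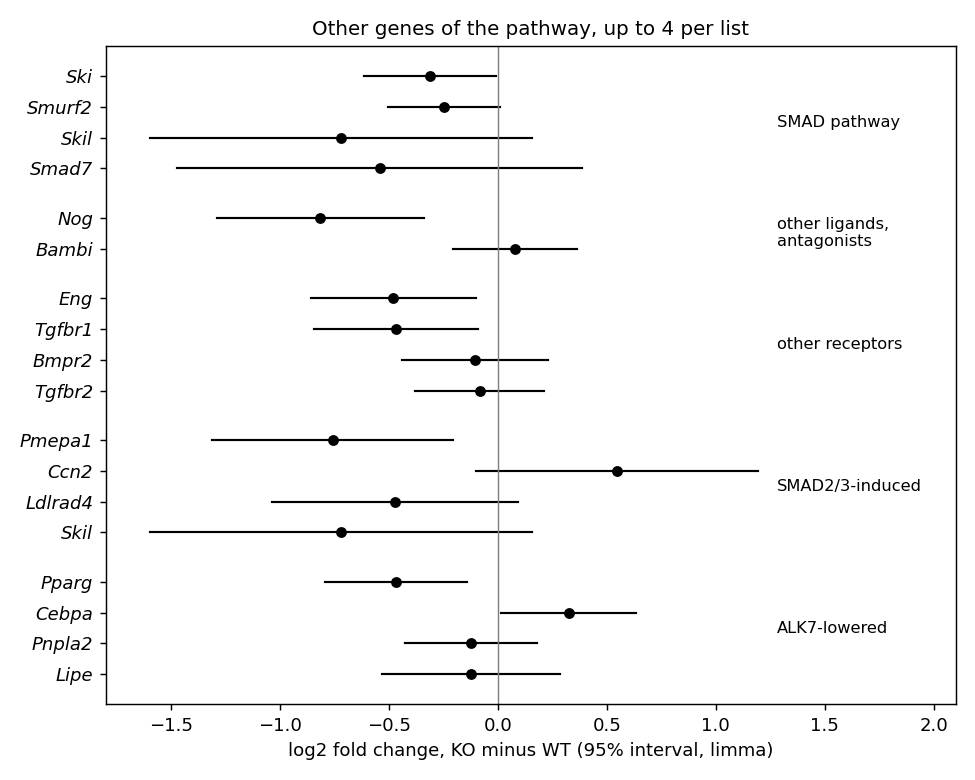
Log2 fold change (KO minus WT) with 95% intervals from limma (n = 5 KO, n = 3 WT) for up to 4 genes of each of 5 lists around the receptors, chosen by the smallest unadjusted p, with Skil shown under both lists that hold it. The intervals of Ski, Nog, Eng, Tgfbr1, Pmepa1 and Pparg lie wholly below 0 and that of Cebpa above it, before adjustment, and the others span 0.

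Of the 8 other receptors of the TGF-beta family, 2 were higher and 6 lower (median -0.09). The type I receptor gene Tgfbr1 was at 5.89 ± 0.188 in KO (SD, n = 5) and 6.36 ± 0.311 in WT (SD, n = 3), and the endothelial coreceptor gene Eng at 8.67 ± 0.211 in KO and 9.15 ± 0.283 in WT. Their unadjusted p-values were 0.0196 and 0.0178 in limma, and both overlapped between the groups. Bmpr2, a type II receptor gene for bone morphogenetic proteins, read 10.29 to 10.34 on KO 1 to KO 4 and 10.85 on KO 5, against 10.52 to 10.54 in WT, so that 4 KO arrays lay below WT and KO 5 above. Its log2 fold change was -0.10, and -0.21 without KO 5. Tgfbr2, the type II receptor gene for TGF-beta, was at -0.08, with -0.16 to -0.03 when 1 array was left out (-0.03 without KO 5). Among the other ligands and antagonists only 2 of 16 listed genes were bright enough to test. Nog, which encodes the bone morphogenetic protein antagonist noggin, was lower on all 5 KO arrays (3.30 to 3.66) than on any WT array (3.87 to 4.91), with a log2 fold change of -0.81 (adjusted p = 0.271 in limma), and -0.52 without WT 1. The KO values lay near or below the level filter of 3.61. Their mean of 3.50 was below it and the WT mean of 4.32 above it, so Nog was tested only because of its WT signal. Its separation is therefore not taken as support for a difference. Bambi, a decoy receptor gene, was at 0.08, with 0.040 to 0.14 when 1 array was left out.

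The fat cell genes that ALK7 signalling is reported to lower went both ways. Pparg, the master regulator of fat cell differentiation, read 9.94 to 10.36 in KO and 10.37 to 10.74 in WT, and Cebpa, its partner factor, read 9.56 to 9.99 in KO and 9.38 to 9.52 in WT, each with no overlap between the groups. Their log2 fold changes were -0.47 and 0.32 (adjusted p = 0.331 and 0.454 in limma). Over all tested genes, 5.54% had KO below WT without overlap and 2.99% had KO above WT. The lipase genes Pnpla2 and Lipe had -0.12 each, and Pnpla2 was at -0.046 without KO 5. Adrb3, the remaining gene of that list, was not analysed here.

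Acvr1c and 5 other genes, Acvr1b, Fstl3, Smad7, Skil and Pmepa1, were picked after their values were seen because they varied between mice in related orders. Within KO, Acvr1b, Fstl3, Smad7 and Pmepa1 were each lowest on KO 3, and all 4, with Skil, were highest on KO 5. Acvr1c ran in the opposite order, highest on KO 3 and lowest on KO 5. Among the WT arrays, Acvr1b, Fstl3, Smad7, Skil and Pmepa1 were highest on WT 1, where Acvr1c was lowest. Skil differed in being lowest on KO 2. Several other genes of the pathway did not share this order. Ldlrad4 was lowest on KO 4 and highest on KO 1, and was lowest among WT on WT 1. Ccn2 was lowest on KO 5 and highest on KO 2, and Smurf2 and the member Acvr2a were also lowest on KO 5. KO 5 had the lowest median over tested genes (5.93, against 6.04 to 6.07 on the other arrays) and WT 1 carried reproductive tract transcripts. Their part in this order was not tested.

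**Figure D5:**
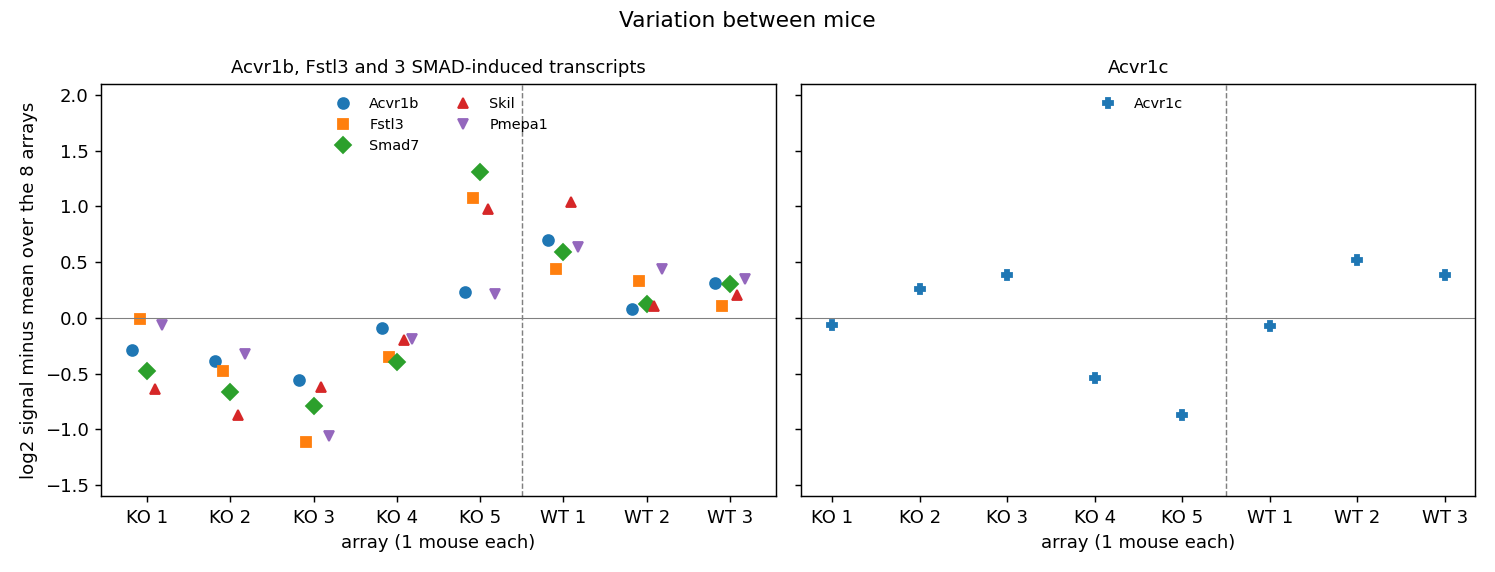
Log2 signal minus the mean over the 8 arrays for Acvr1b, Fstl3, Smad7, Skil and Pmepa1 (left) and Acvr1c (right), picked after their values were seen, with KO 1 to KO 5 left of the dashed line and WT 1 to WT 3 right of it, 1 mouse per array. The genes at the left reach their highest KO value on KO 5, where Acvr1c has its lowest.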

How the data were processed

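Transcript levels were measured on 8 Affymetrix arrays, 1 per mouse, and groups and replicate numbers were read from the sample titles. The authors deposited 1 log2 value per probe set and array. Per the submitters' processing notes these come from RMA, which corrects background, normalizes between arrays and summarises the probes of a set, and the package oligo, while the design text names Expression Console, so the tool is unsettled. Versions and a genome build are not given. The log2 values were used as deposited. As array signals they have no read depth, so precision depends on how many arrays a group has.

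Of 41345 probe sets, 23521 had 1 gene symbol, 1814 had more and 16010 had none in the platform annotation, which can be old. Symbols were updated by Entrez identifier for 23328. The brightest probe set of a gene was kept (22180 genes), and the upper 11090 by mean level, from 3.61, were tested. KO was set against WT in R 4.3.3 with lmFit and eBayes of limma 3.58.1, as a two-sided test with Benjamini-Hochberg adjustment over all tested genes. Values and p-values of members below the filter come from a fit of all 22180 genes. Single values had an exact two-sided permutation test over 56 divisions of the arrays, without adjustment. It was run for 10 members and 9 differences from marker lists. The named genes of the lists around the receptors, Abhd15 and the marker list means also had this test. Its p is the smaller tail probability doubled, so the smallest p is 0.0357. The limma procedure was tested on simulated data with independent noise. At the adjusted threshold it recovered 7.61% of log2 changes of size 0.5, 78.7% of size 1 and 99.1% of size 2. The largest change among the members was -0.58 (Acvr1b), so a member that did not pass was not shown to be unchanged.

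The members, lists and tests were chosen with earlier results of these data known. All members are named, with up to 4 tested genes of smallest unadjusted p from each list around the receptors. Promoter windows come from a RefSeq table (GRCm38.p6) that matched 8 of the 10 members. KO and WT share the numbers 1 to 3. Arrays with the same number, each taken relative to its group mean, correlated over tested genes at 0.133, 0.103 and 0.192. All are above 0.1, and a fit with the replicate block, which treats the numbers as pairs, was run as an alternative. The labels do not say that the numbers are pairs. Arrays with different numbers were not correlated in this way, so these values do not show a pairing. The alternatives were other filters, centring, quantile normalization, averaged probe sets, array weights, a trended robust prior, the block and left-out arrays. Figures were drawn with matplotlib 3.10.9.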

Additional observations from a re-analysis of the deposited data

Results flagged for a closer look

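Within the 5 KO arrays, 1 array lay far from the other 4 for 4 of the 36 genes and list means examined. The rule used marks about 1 in 20 independent items by chance. Many of the 36 are related genes and some were picked on these same arrays, so the count does not show an excess. Tdgf1 read 1.65 on KO 3, against 1.84 to 1.90 on the other KO arrays, all below the level filter. Smad7 read 6.92 on KO 5, against 4.82 to 5.21 on the other KO arrays. Bmpr2, the type II receptor gene of bone morphogenetic proteins, read 10.85 on KO 5, against 10.29 to 10.34 on the other KO arrays. The epididymis and seminal vesicle list mean was 3.79 on KO 4, against 1.81 to 2.07 on the other KO arrays.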

How the results depend on the processing

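No member passed the adjusted threshold under any of the 18 alternatives, and Acvr1c, Acvr1b, Acvr2a, Inhbb, Fst, Fstl3, Tdgf1 and Inhba kept their direction in those run for them. Of 11090 genes, limma called 0 at the main settings (1164 at an unadjusted p under 0.05), 40 with array weights, 3 with a trended, robust prior, 2 with the replicate block, and 0 to 5 when 1 array was left out, the 5 without KO 5. Genes with an unadjusted p under 0.05 numbered 1871 without a level filter (of 22180), 1873 with array weights, 1997 with the replicate block, 732 without WT 1 and KO 4, and 745 to 1596 with 1 array left out, lowest without WT 1. Members with an unadjusted p under 0.05 numbered 3, and 0 to 4 with 1 array left out, 0 without WT 1 and KO 4 and 0 without KO 1 and KO 2. The cause of these shifts was not tested. The replicate block changed no member's call. The log2 fold change of Acvr2b turned to -0.045 with array weights and -0.16 without WT 1 and KO 4, and ran from -0.12 to 0.15 with 1 array left out. That of Gdf3 turned to -0.027 with the replicate block and -0.14 without WT 1 and KO 4, and ran from -0.062 to 0.44 with 1 array left out. Tgfbr2 turned to 0.014 and Lipe to 0.034 with the replicate block, and Lipe ran from -0.20 to 0.0012 with 1 array left out. Exact tests of members and of differences from marker lists were repeated under centring, quantile normalization and the mean of probe sets. They were not repeated with an array left out, where the smallest possible p is 0.0571 or more. Those of other genes, such as Pmepa1, were not repeated. Centring took Inhbb to an exact permutation p of 0.0714 and quantile normalization took Acvr2a to 0.0357.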
